A study of Mus musculus with 9 samples.

Results

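The CC chemokine genes of mouse chromosome 11 were examined as 8 members in 2 clusters: Ccl2, Ccl7 and Ccl12 (the Ccl2 cluster), and Ccl5, Ccl9, Ccl6, Ccl3 and Ccl4 (the Ccl3 cluster). A peak belonged to them when it lay in the RefSeq span of a member or within 10 kb of it, and a peak near several members was counted once. Merging overlapping peaks of the 4 deposited lists gave 66 such regions, 15 in the Ccl2 cluster and 51 in the Ccl3 cluster, of 194768 in the genome. The data are ATAC-seq, in which a transposase cuts and tags open DNA, from C57Bl/6 bone marrow cells that were cultured for 9 days with GM-CSF at 20 ng/mL, given retrovirus on day 2 and sorted for CD11c and a human CD8 reporter. Cells carried mi8, the control vector for overexpression, OE, which overexpresses Pcgf6, LMP8, the control vector for knockdown, or HP109, which expresses a hairpin RNA against Pcgf6. Each vector had 2 libraries and each list stands for both, and a single input library served all lists. There is therefore no spread between replicates, no test between vectors was run, and whether the libraries came from separate cultures is not given in the sources used here.

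CC chemokines are small secreted proteins that draw leukocytes along a gradient through G protein-coupled receptors. CCL2, CCL7 and CCL12 act on CCR2 and recruit monocytes. CCL3, CCL4 and CCL5 attract T cells, NK cells and myeloid cells, CCL3 and CCL5 in part through CCR1, and CCL6 and CCL9 are rodent chemokines made by myeloid cells. Dendritic cells release several of them when activated. PCGF6 belongs to a repressive Polycomb complex, and the comparison addresses its role in the activation of dendritic cells.

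The sequences of 4 members before their starts (RefSeq, GRCm38.p6) are shown because peaks described below lie on them in every list, in OE on Ccl12 over part of the run and short of the start. Each run holds the 250 bases before the gene start, 5′ to 3′ on the strand of the gene, with matches to the motifs searched in capitals. Ccl12 lies at chr11:82101595-82101844 on the plus strand, and the others lie on the minus strand, Ccl9 at chr11:83578637-83578886, Ccl6 at chr11:83593088-83593337 and Ccl3 at chr11:83649379-83649628.
Ccl12: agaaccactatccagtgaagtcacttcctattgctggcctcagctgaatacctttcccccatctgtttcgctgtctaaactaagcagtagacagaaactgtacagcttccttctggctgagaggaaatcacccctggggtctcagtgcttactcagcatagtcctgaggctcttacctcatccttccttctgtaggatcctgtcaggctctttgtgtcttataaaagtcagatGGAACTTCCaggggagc
Ccl9: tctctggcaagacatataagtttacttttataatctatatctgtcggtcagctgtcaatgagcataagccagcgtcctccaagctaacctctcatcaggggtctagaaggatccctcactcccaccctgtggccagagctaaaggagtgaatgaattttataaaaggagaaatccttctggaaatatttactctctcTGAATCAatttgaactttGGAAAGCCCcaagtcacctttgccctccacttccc
Ccl6: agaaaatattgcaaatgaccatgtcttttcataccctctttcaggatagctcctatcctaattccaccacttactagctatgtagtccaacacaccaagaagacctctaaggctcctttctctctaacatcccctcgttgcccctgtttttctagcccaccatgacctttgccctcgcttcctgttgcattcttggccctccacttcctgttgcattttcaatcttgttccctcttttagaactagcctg
Ccl3: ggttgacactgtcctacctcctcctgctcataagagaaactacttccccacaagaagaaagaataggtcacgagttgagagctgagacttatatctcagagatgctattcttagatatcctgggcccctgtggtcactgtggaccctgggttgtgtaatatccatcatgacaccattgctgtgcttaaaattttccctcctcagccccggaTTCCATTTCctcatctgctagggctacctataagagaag

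The motifs, read on both strands, were NF-kB as GGNNNTTCC, AP-1 as TGANTCA, an interferon response element as GAAANNGAA, PU.1 as GAGGAAGT, the E-box of MAX and MGA as CACGTG and E2F as TTCCCGC. Of 32851 promoter entries, 15.7%, 6.75%, 7.13%, 2.44%, 6.02% and 3.82% held them in that order. Ccl12 held an NF-kB match from −17 to −9 relative to the start, which fits the letters on both strands. Ccl9 held an AP-1 match from −53 to −47 and, on the opposite strand, an NF-kB match from −35 to −27. Ccl3 held an interferon response match from −39 to −31 on the opposite strand. No match overlapped another motif, and none of the 6 motifs was found in the Ccl6 run.

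The strength of a peak is given as the authors' −log10 q of its summit, and as the pileup, the whole number of reads stacked at the summit, recovered from the deposited fold and −log10 p. Both describe peaks within a list. Ratios of pileups were taken only within a pair of similar background. The lowest background was 2.00 reads in OE and 1.95 in mi8, and 1.35 in HP109 and 1.42 in LMP8. Values of all 4 lists are printed together for each region, but no difference in strength is read from them across the pairs. Across the genome, 104319 to 166086 regions were present in a list, the fewest in OE and the most in mi8. Among the marker genes chosen, peaks at a gene end (within 1000 bp) were found in each list at 10 to 12 of 12 dendritic cell genes, including Itgax, which encodes CD11c, and at 9 or 10 of 10 monocyte and macrophage genes. Of the dendritic cell genes, Ciita had no end peak in OE, and Cd209a had a weak peak in HP109 alone (−log10 q 2.38). End peaks were found at 2 to 6 of 10 granulocyte genes and 1 or 2 of 6 mast cell and basophil genes. They were found at 2 to 7 of 9 lymphoid and plasmacytoid genes, and OE had the lowest count of each of these groups. Cpa3, Ly6g, Mpo and Cd3e had none in any list. The granulocyte genes S100a8 and Camp, Gata2 of the mast cell group and Cd79a of the lymphoid group had end peaks in every list. At Camp the −log10 q was 81.4 in HP109, 25.7 in LMP8, 65.9 in OE and 58.0 in mi8. The part of such cells in the values below was not tested, and fewer cells with open DNA at a site and less access per cell cannot be told apart in bulk samples.

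Like all regions, those of the Ccl2 cluster were present most often in mi8 and least often in OE. Of the 15 regions, mi8 held 15 (100%), LMP8 11 (73.3%), HP109 10 (66.7%) and OE 6 (40%). The shares of all regions were 85.3%, 68.0%, 82.8% and 53.6% in that order. All 6 OE regions had a peak in each of the other lists, so no region was in OE alone. Such absence was rare over the genome too, with 4.70% of all OE regions absent from mi8 and 1.28% of all regions in OE alone. Of the 15 mi8 regions, 9 were absent from OE (60%, exact 95% interval 32.3 to 83.7), beside 40.1% of all mi8 regions. Absence depends on strength, and in the class of −log10 q from 20 to 40 it held for 2 of 3 regions, beside 9.73% of all mi8 regions of that class. From 10 to 20 it held for 2 of 2, beside 39.3%, and at 40 or above for 0 of 5, beside 0.389%. Of the weaker regions it held for 1 of 1 from 5 to 10, beside 71.5%, and for 4 of 4 under 5, beside 86.6%. These counts are small, and the interval covers counting error only.

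**Figure D1:**
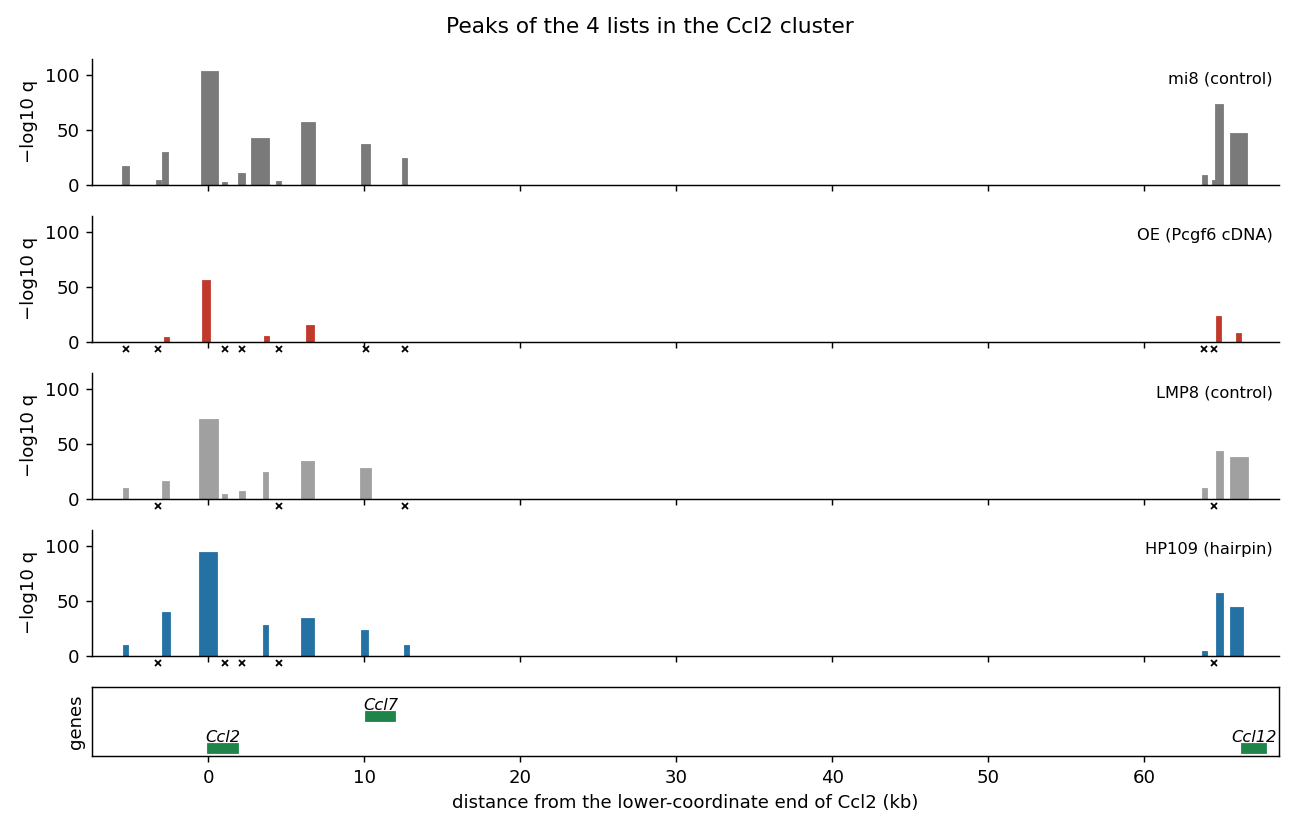
Strongest peak of each region of the Ccl2 cluster in the 4 lists, as −log10 q (vertical axis) against the distance from the lower-coordinate end of Ccl2 in kb. Bars span the peak, crosses mark regions with no peak in that list, and green boxes are gene spans; OE has 6 bars and 9 crosses, and mi8 has 15 bars.

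Ccl2 encodes the main monocyte attractant of the family, and its lower-coordinate end (span chr11:82035577-82037452) carried the strongest region of the cluster in every list. The region at 82035062 to 82036206 had a summit pileup of 90 reads in mi8, 58 in OE, 68 in LMP8 and 81 in HP109. The corresponding −log10 q values were 102.9 in mi8, 55.2 in OE, 72.0 in LMP8 and 93.9 in HP109. The OE to mi8 pileup ratio was 0.644 (95% counting interval 0.455 to 0.906). The HP109 to LMP8 ratio was 1.19 (0.852 to 1.67), an interval that includes equality. Over all shared regions of the genome the median ratios were 0.789 for OE over mi8 and 1.38 for HP109 over LMP8. Each lies inside the interval at this gene end. Peaks covered 45% of the Ccl2 span in mi8, 5.60% in OE, 41.5% in LMP8 and 28.6% in HP109. Of all protein-coding genes, 0.759% were lower in OE than in mi8 by 20 points or more, as Ccl2 and Ccl12 were. That share was not matched for gene length, and the spans of Ccl2 and Ccl12 are 1876 and 1555 bp.

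Around Ccl2, 3 more regions were shared by OE and mi8, each with an OE to mi8 ratio below that of the gene end. The region at 82038182 to 82039448, 730 bp past the upper end, had a pileup of 45 reads in mi8, 12 in OE, 28 in LMP8 and 30 in HP109, an OE to mi8 ratio of 0.267 (0.128 to 0.513). The region at 82032676 to 82033134, on the other side of the gene, had 43 reads in mi8, 17 in OE, 28 in LMP8 and 41 in HP109, with ratios of 0.395 (0.211 to 0.708) for OE and 1.46 (0.884 to 2.46) for HP109. Between Ccl2 and Ccl7, at 82041573 to 82042444, the pileup was 55 in mi8, 26 in OE, 36 in LMP8 and 34 in HP109. All 3 regions were lower in OE than in mi8, while HP109 and LMP8 lay within counting error of each other. The intervals of the HP109 to LMP8 ratios also include the genome median of 1.38. Those of the OE to mi8 ratios, with upper bounds of 0.513, 0.708 and 0.767, lie below the genome median of 0.789. A region at 82030127 to 82030473 had 35 reads in mi8, 24 in LMP8 and 19 in HP109 and no peak in OE. Another, 83 bp past the upper end of Ccl2 at 82037535 to 82037929, had 18 reads in mi8 and 12 in LMP8 and no peak in either Pcgf6 vector.

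Ccl7, which encodes a second CCR2 ligand, had no peak in OE anywhere in its span or at either end. Its lower-coordinate end (span chr11:82045712-82047525) lay in the region at 82045389 to 82046020, where the pileup was 50 in mi8, 30 in LMP8 and 26 in HP109. The −log10 q there was 36.8 in mi8, 27.0 in LMP8 and 22.7 in HP109. Over the background that mi8 had at this summit, 11 reads would reach the lowest −log10 p of the OE list, and the mi8 pileup was 4.55 times that number. This limit assumes the same background in OE and leaves out any rule on peak length. Past the upper end, the region at 82048033 to 82048316 had 31 reads in mi8 and 15 in HP109, and no peak in OE or LMP8; mi8 stood at 3.88 times the OE limit of 8 reads and HP109 at 2.50 times the LMP8 limit of 6. This was the 1 region of the cluster present in HP109 and absent from LMP8, of 10 (10%, beside 24.2% of all HP109 regions).

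Ccl12 encodes the mouse chemokine MCP-5, a further monocyte attractant, and a peak covered its start in mi8, LMP8 and HP109, while no OE peak reached it. The region at 82101148 to 82102212 had a pileup of 54 reads in mi8, 19 in OE, 51 in LMP8 and 47 in HP109. The strongest peak there was 1034 bp wide in mi8, 1064 in LMP8, 769 in HP109 and 184 in OE. It held all 250 bases of the Ccl12 run above in mi8, LMP8 and HP109, and 140 of them in OE, whose peak ended before the NF-kB match. The OE to mi8 ratio was 0.352 (0.197 to 0.603) and the HP109 to LMP8 ratio 0.922 (0.607 to 1.40). At 82100216 to 82100665, 1180 bp before the start, the pileup was 74 in mi8, 34 in OE, 47 in LMP8 and 56 in HP109. The OE to mi8 ratio was 0.459 (0.297 to 0.699) and the HP109 to LMP8 ratio 1.19 (0.794 to 1.79). At both Ccl12 regions the OE to mi8 interval lies below the genome median of 0.789, and the HP109 to LMP8 interval includes the genome median of 1.38.

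Over the cluster, all 6 regions shared by OE and mi8 had a pileup lower in OE by 1.5-fold or more, beside 31.9% of all shared regions. The median OE to mi8 ratio was 0.426, beside 0.789 over the genome, and the summed pileup was 166 reads against 361. Counting alone regions with at least 30 reads in either list leaves the same 6, beside 35.2% of such regions. In the knockdown pair the cluster also lay below the genome: 0 of 9 shared regions were 1.5-fold or more higher in HP109, beside 37.9% of all shared regions. By as much, 1 of 9 was lower, beside 1.14%. That region, at 82099331 to 82099533, was weak, with 9 reads in HP109 and 15 in LMP8. Its ratio of 0.6 (0.232 to 1.46) has an interval that includes equality. The median HP109 to LMP8 ratio was 0.944, beside 1.38 over the genome. The summed pileup was 343 reads in HP109 and 327 in LMP8, a ratio of 1.05 (0.899 to 1.22). Among the 9 regions, 7 had at least 30 reads in either list, and 0 of the 7 were higher by 1.5-fold or more, beside 51% of such regions. Lower by as much were 0 of the 7, beside 0.0748%. In both pairs, the ratio at the Ccl2 cluster thus lay below the median ratio of all shared regions. Of 11 LMP8 regions, 2 were absent from HP109 (18.2%, interval 2.28 to 51.8, beside 7.76% of all LMP8 regions).

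**Figure D2:**
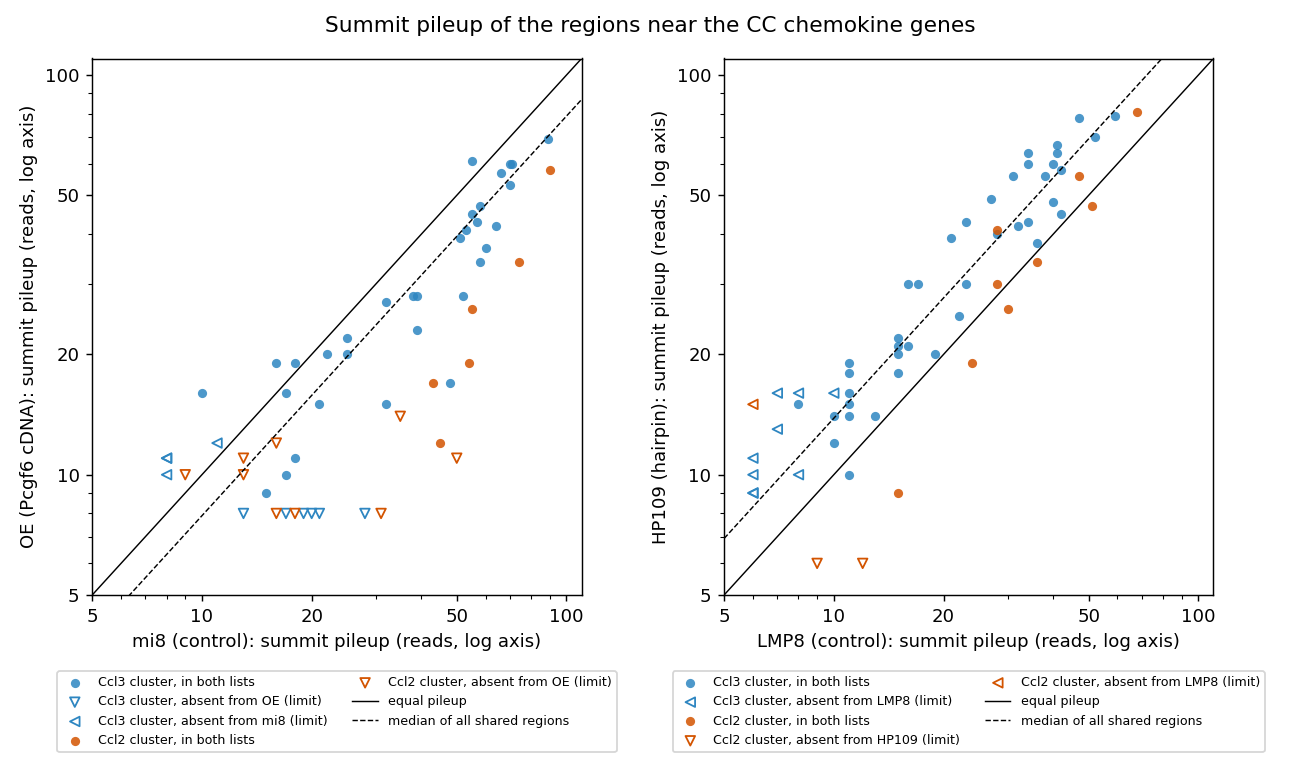
Summit pileup in reads (log axes) of each region, control vector on the horizontal and Pcgf6 vector on the vertical axis, for OE with mi8 and for HP109 with LMP8. Filled points are regions in both lists, open triangles regions absent from 1 list drawn at its detection limit, the solid line is equality and the dashed line the genome median ratio (0.789 and 1.38); the orange Ccl2 points in both lists lie below the dashed line in both panels except 1 in the knockdown panel.

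The control vectors were compared for background. Of the 15 mi8 regions in the Ccl2 cluster, 4 were absent from LMP8 (26.7%, interval 7.79 to 55.1), beside 25% of all mi8 regions, and 0 of 11 LMP8 regions were absent from mi8 (interval up to 28.5%), beside 6.02%. In the Ccl3 cluster 2 of 38 mi8 regions were absent from LMP8 (5.26%, interval 0.644 to 17.7) and 4 of 40 LMP8 regions from mi8 (10%, interval 2.79 to 23.7).

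The Ccl3 cluster was open in all lists, with HP109 the fullest. Of its 51 regions, HP109 held 49 (96.1%), LMP8 40 (78.4%), mi8 38 (74.5%) and OE 36 (70.6%). The shares of all regions were 82.8%, 68.0%, 85.3% and 53.6% in that order. In all 4 lists were 32 (62.7%), beside 47.1% of all regions. HP109 alone held 7 (13.7%, interval 5.70 to 26.3), beside 8.49% of all regions. All 40 LMP8 regions had a peak in HP109 (interval of absence up to 8.81%), beside 7.76% of all LMP8 regions absent from HP109. Of 49 HP109 regions, 9 were absent from LMP8 (18.4%, interval 8.76 to 32.0), which includes the 24.2% of all HP109 regions. Of 38 mi8 regions, 6 were absent from OE (15.8%, interval 6.02 to 31.3), below the 40.1% of all mi8 regions. Of the 38 mi8 regions, 20 had a −log10 q of 20 or more. Over the genome, 29351 of 166086 mi8 regions lay from 20 to 40 and 37742 at 40 or above. In the class from 10 to 20 the count absent from OE was 4 of 10, beside 39.3%. It was 2 of 7 from 5 to 10, beside 71.5%, 0 of 1 under 5, beside 86.6%, 0 of 6 from 20 to 40, beside 9.73%, and 0 of 14 at 40 or above, beside 0.389%. In the reverse direction 4 of 36 OE regions were absent from mi8 (11.1%, interval 3.11 to 26.1), beside 4.70%, and all 4 were among its 8 OE regions with a −log10 q under 5, of which 19.4% were absent over the genome.

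**Figure D3:**
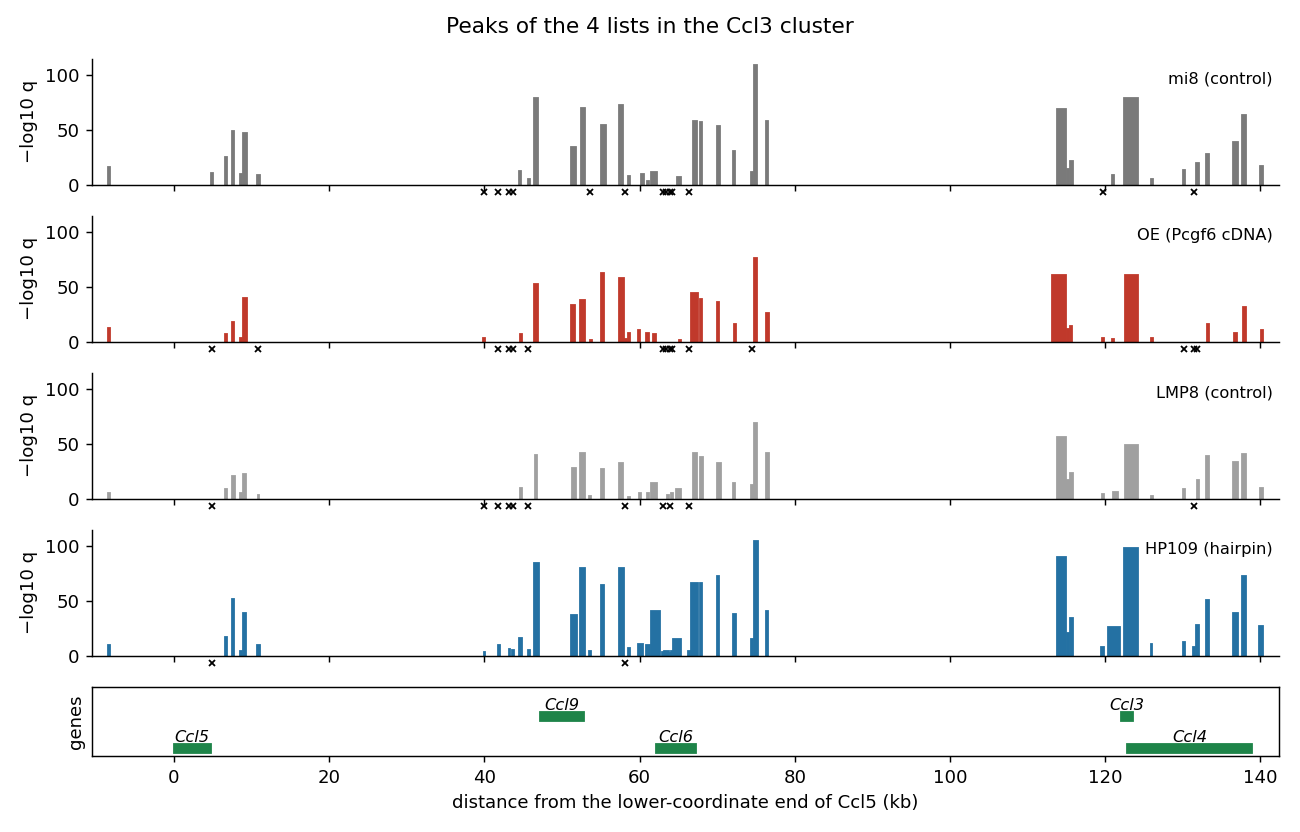
Strongest peak of each region of the Ccl3 cluster in the 4 lists, as −log10 q (vertical axis) against the distance from the lower-coordinate end of Ccl5 in kb. Bars span the peak, crosses mark regions with no peak in that list and green boxes are gene spans, the long Ccl4 box being the RefSeq span; HP109 has 49 bars and 2 crosses.

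**Figure D4:**
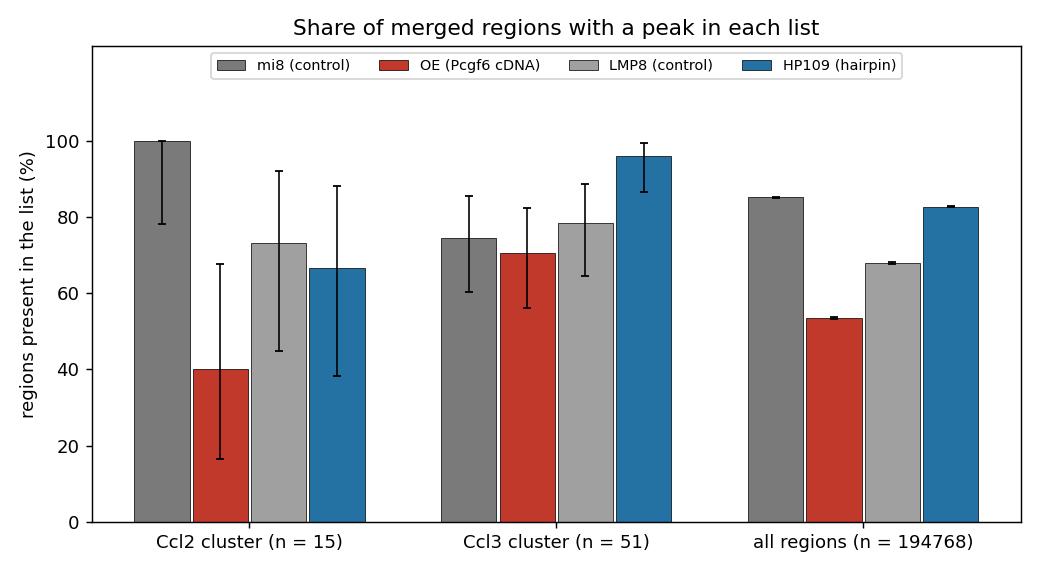
Percent of the merged regions with a peak in each list (vertical axis), for the Ccl2 cluster, the Ccl3 cluster and all regions. Error bars are exact 95% intervals of counting error; OE stands at 40% of the Ccl2 cluster and 70.6% of the Ccl3 cluster, beside 53.6% of all regions.

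Ccl5 encodes RANTES, an attractant of T cells and monocytes, and had a peak in mi8 alone at its gene end and none inside its span (chr11:83525778-83530518) in any list. The mi8 peak at 83530584 to 83530707, 66 bp past the upper end, had 19 reads and a −log10 q of 11.3, with an OE limit of 8 reads. The stronger regions lay farther out. At 83532326 to 83532516, 1808 bp past the same end, every list had a peak, with 32 reads in mi8, 15 in OE, 15 in LMP8 and 22 in HP109. There the OE to mi8 ratio was 0.469 (0.236 to 0.891) and the HP109 to LMP8 ratio 1.47 (0.727 to 3.04). At 83533222 to 83533595, 2704 bp past the same end, the pileup was 52 in mi8, 28 in OE, 27 in LMP8 and 49 in HP109. The OE to mi8 ratio was 0.538 (0.327 to 0.868) and the HP109 to LMP8 ratio 1.81 (1.11 to 3.02). At 83534682 to 83535239 the pileup was 55 in mi8, 45 in OE, 28 in LMP8 and 40 in HP109. Its ratios, 0.818 (0.539 to 1.24) for OE and 1.43 (0.860 to 2.40) for HP109, have intervals that include equality. At 83534331 to 83534552 the pileup was 18 in mi8 and 11 in OE, and 11 in LMP8 and 10 in HP109. Over the 5 regions near Ccl5 shared by OE and mi8 the median ratio was 0.611, beside 0.789 over the genome. Over the 6 shared by HP109 and LMP8 it was 1.45, beside 1.38.

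Ccl9 encodes MIP-1 gamma, a CCR1 ligand, and had strong regions at both ends of its span (chr11:83572917-83578636) in every list. The region at the start, 83578042 to 83578755, had 64 reads in mi8, 42 in OE, 41 in LMP8 and 64 in HP109. Its summit lay 69 to 89 bp inside the gene, and the peaks reached back over 90 to 119 of the 250 bases shown above, including the AP-1 and NF-kB matches in all 4 lists. The region past the other end, 83572193 to 83572848, had 70 reads in mi8, 53 in OE, 41 in LMP8 and 67 in HP109. Both Ccl9 regions were higher in HP109 than in LMP8, by 1.56 (1.04 to 2.37) and 1.63 (1.09 to 2.47). Both intervals include the median ratio of 1.38 over all shared regions.

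Ccl6, the gene of the rodent chemokine C10, stood apart in HP109 by the share of its span (chr11:83587886-83593087) inside peaks. That share was 20.6% in mi8, 16.4% in OE, 38.7% in LMP8 and 68.9% in HP109. HP109 exceeded LMP8 by 30.2 percentage points, and 0.142% of all protein-coding genes had a gap of 20 points or more in that direction. That share was not matched for gene length, and the Ccl6 span is 5202 bp. The exons of Ccl6 were not used here. Inside the gene, HP109 had 3 weak peaks with none in any other list, at 83588620 to 83588892, 83589650 to 83589745 and 83591994 to 83592181, with 9, 10 and 10 reads. HP109 and LMP8 shared 2 more with no peak in OE or mi8, at 83588945 to 83589539 and 83589812 to 83590077, with 10 to 14 reads. At the lower-coordinate end, 83587242 to 83588422, the pileup was 32 in mi8, 27 in OE, 21 in LMP8 and 39 in HP109. The start was open in all lists, and the region at 83592385 to 83593300 had 58 reads in mi8, 47 in OE, 42 in LMP8 and 58 in HP109.

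**Figure D5:**
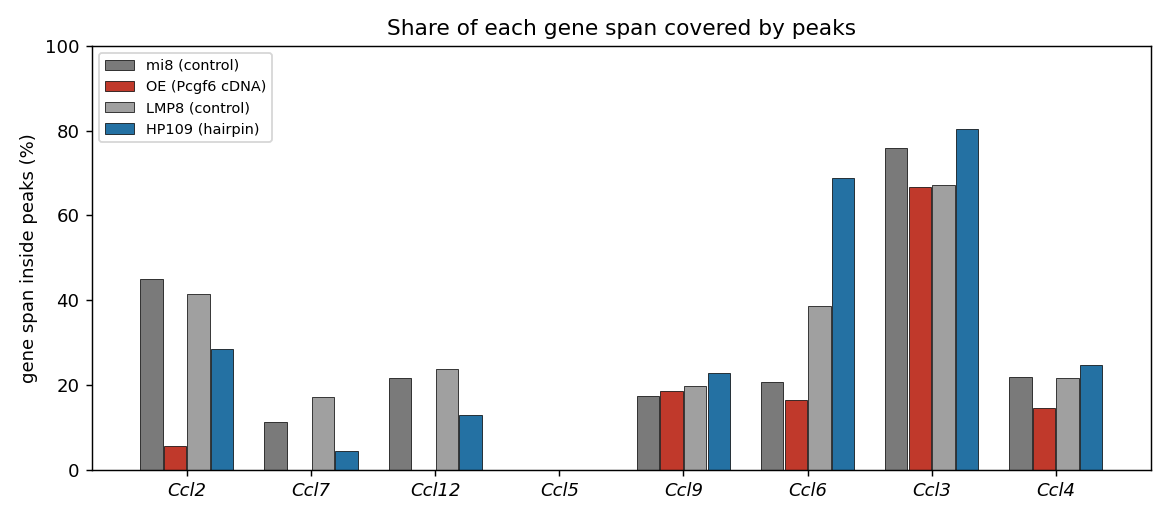
Percent of each gene span inside peaks (vertical axis) for the 8 members in the 4 lists. OE is the lowest list at Ccl2 (5.60%), Ccl6, Ccl3 and Ccl4 and has no bar at Ccl7 and Ccl12. HP109 is the highest list at Ccl6 (68.9%), Ccl3 (80.5%), Ccl9 and Ccl4. Ccl5 has no bar in any list.

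The strongest region of the cluster in every list lay at 83600540 to 83600978, 7453 bp before the start of Ccl6. Its pileup was 89 in mi8, 69 in OE, 59 in LMP8 and 79 in HP109, with −log10 q values of 108.7, 76.3, 68.7 and 105.1 in that order. Next to it, the region at 83600120 to 83600330 had 20 reads in mi8, 19 in LMP8 and 20 in HP109 and no peak in OE. HP109 had weak peaks with none in the other lists at 83567481 to 83567638, 83568898 to 83569001 and 83569370 to 83569504, on the lower-coordinate side of Ccl9, with 16, 13 and 16 reads. Of 29 HP109 regions near Ccl9 and Ccl6, 8 were absent from LMP8 (27.6%, interval 12.7 to 47.2), close to the 24.2% of all HP109 regions.

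Ccl3 encodes MIP-1 alpha, an inflammatory attractant, and 1 wide region spanned its start in every list. The region at 83648143 to 83650036 had 70 reads in mi8, 60 in OE, 47 in LMP8 and 78 in HP109, and it held the whole Ccl3 run above in all lists. Its −log10 q was 78.9 in mi8, 61.1 in OE, 48.8 in LMP8 and 97.9 in HP109. The OE to mi8 ratio was 0.857 (0.597 to 1.23) and the HP109 to LMP8 ratio 1.66 (1.14 to 2.44). These intervals include the medians of all shared regions, 0.789 and 1.38. The summits of the wide peaks did not coincide: relative to the start, they lay at 42 in HP109, −66 in LMP8, −323 in mi8 and −355 in OE, where negative positions are outside the gene.

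Ccl4 encodes MIP-1 beta, and its RefSeq span (chr11:83648624-83664683) overlaps Ccl3, so the region at the Ccl3 start also lies at the lower end of Ccl4 and is counted once. The upper end had a region at 83663434 to 83663939 with 60 reads in mi8, 37 in OE, 40 in LMP8 and 60 in HP109. Its OE to mi8 ratio was 0.617 (0.398 to 0.944), an interval that includes the genome median of 0.789. Inside the span, the region at 83662221 to 83662923 had 48 reads in mi8, 17 in OE, 36 in LMP8 and 38 in HP109. Its OE to mi8 ratio of 0.354 (0.191 to 0.627) was the lowest of the 32 regions that the cluster shared between them, with an interval below the genome median of 0.789. At 83657491 to 83657836 the pileup was 28 in mi8, 23 in LMP8 and 30 in HP109, and at 83655778 to 83655974 it was 21, 15 and 18. OE had no peak at either, and mi8 stood at 3.5 and 2.63 times the OE limit of 8 reads.

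Over the Ccl3 cluster the pileup ratios lay near those of the genome. For OE over mi8 the median of 32 shared regions was 0.769, beside 0.789, with 10 of 32 lower by 1.5-fold or more, beside 31.9%, and 1 higher by as much, beside 2.27%. For HP109 over LMP8 the median of 40 shared regions was 1.40, beside 1.38, with 15 of 40 higher by 1.5-fold or more, beside 37.9%. HP109 was the higher of the pair in 39 of the 40, beside 84.7% of all shared regions. The cluster thus followed the shift of all regions in both pairs, and the Ccl2 cluster lay below it in both.

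Across both clusters, 8 regions missing from some list had a −log10 q of 10 or more where present. All 8 were in mi8 and absent from OE, 2 were absent from LMP8 and 2 from HP109. Of all such regions of the genome, 84.8% were absent from OE, 31.7% from LMP8, 7.79% from HP109 and 6.25% from mi8, so absence from OE was the common case there too. At gene ends, mi8 had a peak at 8 of 8 members, beside 64.8% of all protein-coding genes, HP109 and LMP8 at 7 of 8 each (64.3% and 62.4%) and OE at 6 of 8 (58.2%). The members differing were Ccl7, without an end peak in OE, and Ccl5, with an end peak in mi8 alone.

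Of the neighbouring genes, Ccl11, which encodes eotaxin, had an end peak in mi8, LMP8 and HP109 (−log10 q 14.7, 6.90 and 12) and none in OE, and Ccl8 and Ccl1 had none in any list. Among 10 other CC ligand genes, 6 had an end peak in all 4 lists and 4 in none. Ccl17 and Ccl22, the CCR4 ligands of mature dendritic cells, had values of 40.7 and 32.4 in mi8, 27.0 and 11.4 in OE, 18.6 and 14.6 in LMP8 and 48.6 and 39.9 in HP109. Among the receptor genes, Ccr1, a receptor of Ccl3 cluster products, had an end peak in every list, with a −log10 q of 77.3 in mi8, 73.3 in OE, 45 in LMP8 and 103.4 in HP109. Ccr2, the receptor of the Ccl2 cluster products, had an end peak in mi8 (2.64), LMP8 (7.24) and HP109 (13) and none in OE, as did Ccr3. Ccr7 had one in mi8 alone (4.76), Ccr9 in OE and mi8 (12.3 and 6.89), and Ackr4 in all but LMP8.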

How the data were processed

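ATAC-seq was measured in 9 libraries, 2 for each of 4 vectors and 1 input, and the authors deposited 1 narrowPeak list per vector. BWA, Picard and MACS2 on build mm10 are named per the submitters' processing notes; no version or threshold is stated there. The lists were called against the input, per the labels, and their names carry the word downsample. The deposited score is 10 times the −log10 q, as a whole number. The deposited fold is the ratio of summit pileup to local background, and the −log10 p and −log10 q are also the authors' values. Library depth was not analysed here, and the lowest background per list, 1.35 to 2.00 reads, stands for it. The pileup was recovered from fold, taken as (pileup + 1) over (background + 1), and a Poisson −log10 p; whole numbers matched within 0.001 for 100% of peaks in every list, after a check on simulated data.

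Several summits of 1 interval were reduced to the one with the highest −log10 q, and chromosomes 1 to 19, X and Y were kept. Lists were merged by overlap of at least 1 bp. Where a region held several peaks of a list, the strongest by −log10 q gives its value. The coordinates in the text are 1-based on mm10. Gene spans came from RefSeq (GRCm38.p6, 21883 protein-coding genes), with all 8 members matched; 4 members were matched in the RefSeq promoter table, which gives their strand. Intervals of shares are exact (Clopper-Pearson) and those of pileup ratios come from the exact binomial interval of 1 pileup in the sum of both; they cover counting error only, and reads are not independent molecules. Regions named were the strongest of each list and cluster, those at gene ends and those missing from a list with a −log10 q of 10 or more, and the others were chosen after their values were seen. Results on 1 receptor gene are not reported here. The members and lists were chosen with earlier results of these data known. Alternatives were other distances, overlaps, peak thresholds, end windows and pileup settings. Work was done in Python 3.11.15 with pandas 2.3.3 and scipy 1.17.1.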

Additional observations from a re-analysis of the deposited data

How the results depend on the processing

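Of 84 shares of absent regions recomputed with other distances, overlaps and peak sets, 75 stayed inside the exact interval of the reported share. Among them was every alternative for mi8 regions absent from OE, in the Ccl2 cluster (40% with equal numbers of peaks to 70% at a −log10 q of at least 10) and in the Ccl3 cluster (13.3% to 30%). These intervals are wide and the alternatives reuse the same peaks, so staying inside is a weak check. The shares of all regions were not recomputed under the alternatives, so whether the difference from the genome holds there was not tested. With gene spans only, the share was 0% for HP109 absent from LMP8 and for mi8 absent from LMP8 in the Ccl2 cluster, and 0% for OE absent from mi8 and for mi8 absent from LMP8 in the Ccl3 cluster, where fewer regions are counted. With peaks at a −log10 q of at least 10, it was 0% in both directions of HP109 and LMP8 in the Ccl2 cluster, and in the Ccl3 cluster 0% for LMP8 absent from mi8 and 20% for mi8 absent from LMP8. With equal numbers of peaks per list, it was 8.57% for HP109 absent from LMP8 in the Ccl3 cluster. The cause was not tested. Divided by the genome median, the log2 median pileup ratios were −0.89 (OE) and −0.55 (HP109) in the Ccl2 cluster and −0.038 and 0.016 in the Ccl3 cluster, against −1.23, −0.08, −0.38 and 0.49 undivided; taking the summit of highest pileup changed none of the 4. The number of members with an end peak moved by at most 1 in each list under the end windows and peak sets tried. No paired analysis was possible because each vector has 1 list made from both libraries, and for the same reason no replicate could be left out. Pileups under 20 reads give ratios with intervals of several fold. Where such weak regions were absent from the other list of the pair, they stood at 0.9 to 2.5 times its detection limit.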

Other observations

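The surroundings of the clusters were counted after the values above were seen. Within 50 kb of the outermost genes of the Ccl2 cluster, and outside the 10 kb windows, lay 36 regions that include those around Ccl11. Of these mi8 held 34, LMP8 29, HP109 24 and OE 14, with 20 in mi8 and not in OE and 0 the reverse. The 20 are 58.8% of the mi8 regions there, beside 60% near the members and 40.1% of all mi8 regions. The median OE to mi8 pileup ratio of the 14 shared regions was 0.692, above the 0.426 near the members and below the 0.789 of the genome, and the median HP109 to LMP8 ratio of 23 shared regions was 1.34, beside 0.944 near the members. Around the Ccl3 cluster 43 such regions were found, of which mi8 held 34, LMP8 29, HP109 35 and OE 25. Of the mi8 regions 10 were not in OE (29.4%), with 1 the reverse, and the regions had median ratios of 0.757 for OE over mi8 and 1.5 for HP109 over LMP8.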
